A study of Mus musculus with 12 samples.

Results

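The midbrain and hindbrain patterning factors examined here are 10 transcription factor genes: the engrailed genes En1 and En2, the gastrulation brain homeobox gene Gbx2, the paired box genes Pax2, Pax5 and Pax8, and the Iroquois genes Irx1, Irx2, Irx3 and Irx5. They were taken as the probes that carry one of these gene names, with the brightest probe standing for each gene, and all 10 were found among the 31732 genes and unnamed probes of the array. RNA was measured in neural cells derived from Actin-eGFP C57BL/6 mouse embryonic stem cells (mESC), on 12 two-colour Agilent arrays in 4 groups of 3 biological replicates. The step 4 groups were neural precursors kept for 5 days with bFGF (10 ng/ml), and the step 5 groups were cells differentiated for 7 days without bFGF and with ascorbic acid (200 µM). At each step a control group of cells that were not enriched was set beside a group enriched with magnetic beads against PSA-NCAM, a neural cell adhesion molecule that carries polysialic acid and marks young neurons and their precursors. The labels do not say whether the step 5 enriched cells were sorted before or after their 7 days of differentiation. All samples came from this 1 mESC line by way of embryoid bodies, and its feeder cells were removed beforehand. Each sample was labelled with Cy5 and hybridised against a common mESC RNA labelled with Cy3, so every value below is a log2 ratio of Cy5 to Cy3 in which 0 is the level of the mESC reference.

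These genes divide the embryonic neural tube along its length. Otx2 in front and Gbx2 behind meet at the isthmus, the signalling centre between midbrain and hindbrain, which secretes Fgf8 and Wnt1, and En1, En2, Pax2, Pax5 and Pax8 are switched on around it in the future midbrain and anterior hindbrain. The Iroquois factors are homeodomain proteins that lie in clusters of neighbouring genes and are active in broad domains from the caudal forebrain backwards, where they help to set region and cell type. Several members also work elsewhere: Pax2 and Pax8 in kidney, Pax8 in thyroid, Pax5 in B cells and the Iroquois genes in heart and limb. Gbx2 is also active in embryonic stem cells.

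The promoters of Irx3, Pax8 and Gbx2 are shown here because Irx3 and Pax8 differed between enriched and control cells while Gbx2 did not pass the test. The 250 bases before each annotated start are given 5′ to 3′ on the gene's strand, from RefSeq on GRCm38.p6, which is not the build of the array. They lie at chr8:91801655-91801904 for Irx3, chr2:24475600-24475849 for Pax8 and chr1:89931177-89931426 for Gbx2, each on the minus strand. Capitals mark the GC box GGGCGG and the CCAAT box on either strand.
Irx3: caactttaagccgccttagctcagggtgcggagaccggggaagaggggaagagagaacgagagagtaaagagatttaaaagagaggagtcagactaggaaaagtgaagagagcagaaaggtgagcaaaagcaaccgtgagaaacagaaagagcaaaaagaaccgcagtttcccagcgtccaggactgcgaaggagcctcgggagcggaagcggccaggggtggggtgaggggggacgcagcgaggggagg
Pax8: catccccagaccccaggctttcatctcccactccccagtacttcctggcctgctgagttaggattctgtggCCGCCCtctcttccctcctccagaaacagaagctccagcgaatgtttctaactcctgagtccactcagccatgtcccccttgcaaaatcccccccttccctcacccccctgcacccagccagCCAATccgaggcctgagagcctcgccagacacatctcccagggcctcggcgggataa
Gbx2: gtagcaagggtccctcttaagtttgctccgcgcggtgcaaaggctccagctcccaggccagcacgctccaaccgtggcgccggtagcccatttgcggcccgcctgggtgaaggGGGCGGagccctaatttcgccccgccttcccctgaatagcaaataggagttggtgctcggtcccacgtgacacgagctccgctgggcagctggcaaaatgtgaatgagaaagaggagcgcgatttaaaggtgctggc
The Pax8 promoter held GGGCGG on the antisense strand at positions -179 to -174 from the start and CCAAT on the sense strand at -57 to -53. The Gbx2 promoter held GGGCGG on the sense strand at -137 to -132. The Irx3 promoter held neither, and none of the 3 held TATAAA or the Iroquois half-site pair ACANNTGT. Of the 32851 promoters of this length in the table, 32.7% held GGGCGG, 33.8% CCAAT, 12.4% TATAAA and 6.31% ACANNTGT, in each case on either strand, and these motifs do not overlap each other in the sequences shown.

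The arrays give probe positions on mm9. The probes used lie at chr13:72095735-72095794 for Irx1, chr13:72771499-72771558 for Irx2, chr8:94322476-94322535 for Irx3 and chr8:94884923-94884982 for Irx5. Those of the other genes lie at chr1:122504067-122504126 for En1, chr5:28498468-28498528 for En2, chr1:91825013-91825072 for Gbx2, chr19:44909895-44909954 for Pax2, chr4:44658421-44658480 for Pax5 and chr2:24276147-24276206 for Pax8. The files do not say which exon or part of the transcript each probe matches. Brightness differs from probe to probe, so levels are compared between groups for 1 gene and not between genes.

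Between 25605 and 29078 of the 39429 probes had a Cy5 signal well above background on an array, and there were 0 dye swaps, so a dye effect on a probe stays in the ratios to mESC but cancels between groups. Replicate arrays had a Pearson's r of 0.736 to 0.850 over genes in the step 4 control group, 0.897 to 0.963 in step 4 enriched, 0.662 to 0.918 in step 5 control and 0.940 to 0.962 in step 5 enriched cells. The control arrays of slide 2 stood farthest from their groups. Each replicate number lay on 1 slide, slide 2 was scanned on another day, and the position on a slide follows the group, so position and group cannot be told apart. Markers of other cells also differed between enriched and control cells. All 7 pluripotent stem cell markers tested were lower in enriched than in control cells at both steps, Pou5f1 by a log2 difference of -3.78 (SE 0.48, limma adjusted p = 0.000548) at step 4 and -3.35 (SE 0.48, adjusted p = 0.000545) at step 5. The mean log2 ratio of these 7 markers ranged from -0.96 to -0.69 on step 4 control arrays, -4.91 to -3.60 on step 4 enriched, -0.90 to -0.77 on step 5 control and -4.62 to -3.07 on step 5 enriched arrays. Ncam1, which encodes the sorted protein, was higher in enriched cells by 1.34 (SE 0.43, adjusted p = 0.0372) at step 4 and 1.67 (SE 0.43, adjusted p = 0.0112) at step 5. The Ncam1 call held under 16 of 32 alternatives at step 4 and 30 of 32 at step 5, and with arrays scaled to 1 spread its differences were 0.023 and 0.22. Of 7 mesenchyme and fibroblast markers 1 was higher in enriched cells at step 4 and 0 at step 5 (1 with the replicate number as a block), with median log2 differences of 0.97 and 0.47. Their mean log2 ratio ranged from 2.38 to 3.15 on step 4 control, 3.44 to 3.75 on step 4 enriched, 3.36 to 4.97 on step 5 control and 4.57 to 5.10 on step 5 enriched arrays, so they too were higher on the enriched arrays of step 4. In RNA from whole cultures, fewer cells of a type and less RNA per cell cannot be told apart. What part these markers have in the differences below was not tested.

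En1 and Pax5, which mark the midbrain and the isthmus in the embryo, were close to background in these cells. Cy5 of En1 was well above background on 0 of 12 arrays, and its log2 ratios lay between -0.046 and 0.20. Cy5 of Pax5 was so on 1 array, a step 5 control, and its log2 ratios lay between -0.16 and 0.12. Cy3 was above background on 0 arrays for both genes. No fold is given for either, and 8 of the 10 members were tested between groups.

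The first question was how PSA-NCAM enrichment of the precursors at step 4 went with these genes. All 4 Iroquois genes and Pax8 were higher in enriched precursors, between 1.43-fold and 2.46-fold, and none of the members was lower. En2, Gbx2 and Pax2 did not pass the test. So 5 of the 8 members tested rose and 0 fell, at an adjusted p under 0.05 in a limma fit over all 22313 genes tested, of which 15% rose and 16.2% fell. Pax8 entered the tests only because all 3 arrays of each enriched group had Cy5 well above background, which neither control group had. Its level in enriched cells thus helped to admit it, and its call adds no independent support to the count. Pax2 entered only through step 4 enriched cells. The median log2 difference of the 8 was 0.89, against 0.011 over all genes tested.

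**Figure D1:**
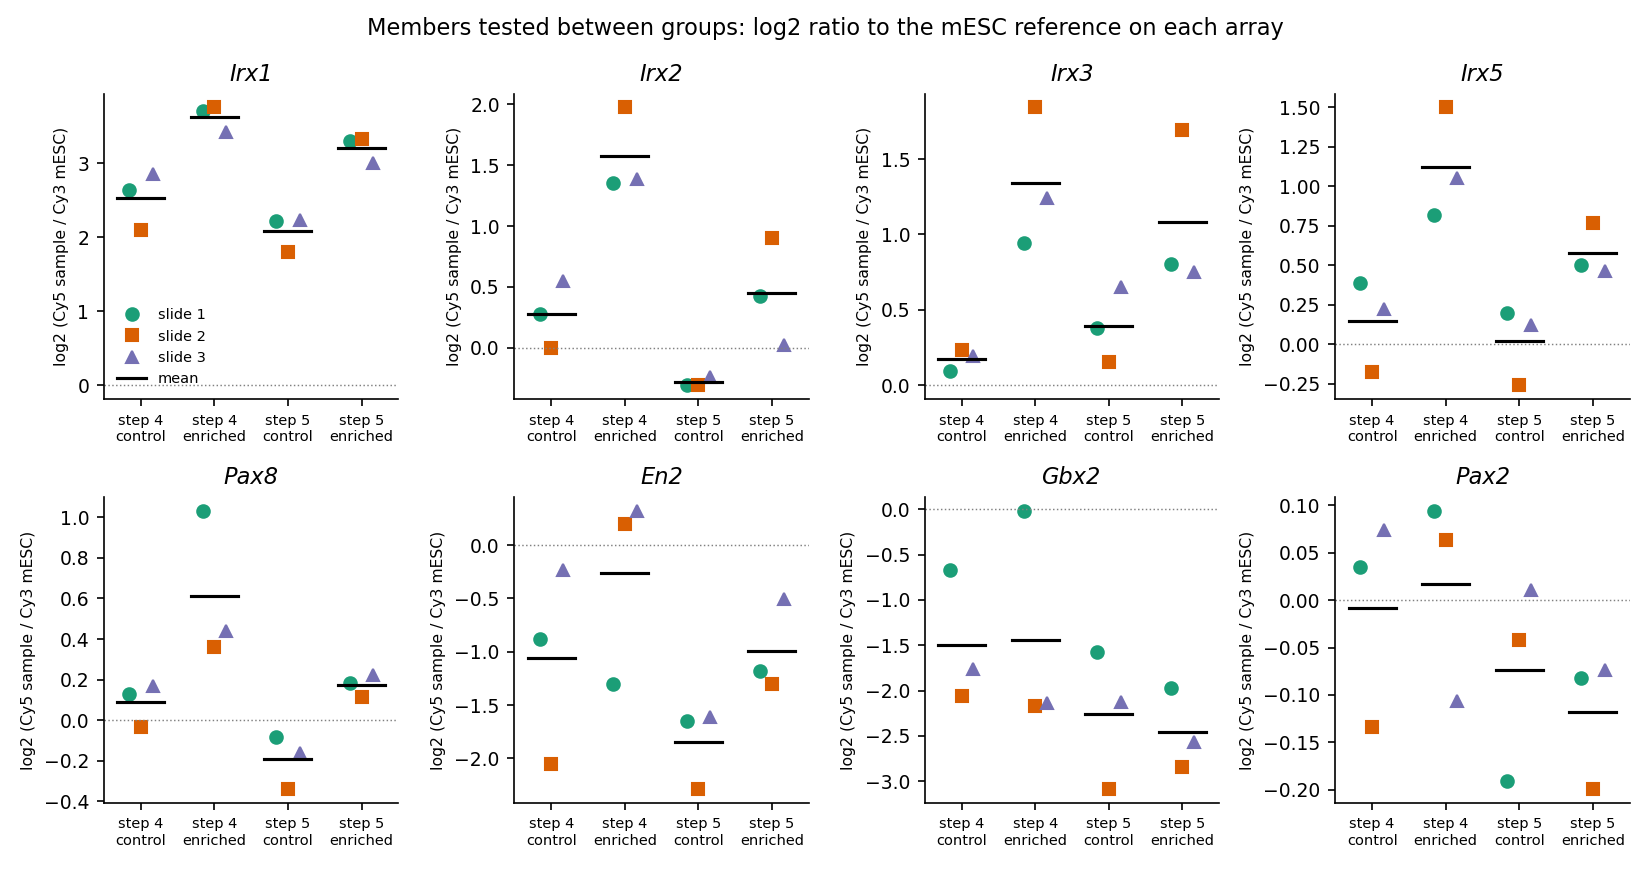
Log2 ratio of Cy5 (sample) to Cy3 (mESC reference) of the 8 members tested, on each of the 12 arrays, by group; points are arrays, marked by slide, and lines are means of 3 arrays. Irx1, Irx2, Irx3, Irx5 and Pax8 lie higher on all 3 enriched arrays than on the 3 control arrays at either step, the Irx1 ratios lie above 0 on every array, and En2 and Gbx2 spread widely within step 4; with arrays scaled to 1 spread the Irx1 difference turns to -0.17 at step 4 and -0.039 at step 5.

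Irx1 had log2 ratios of 2.64, 2.09 and 2.85 in step 4 control and 3.71, 3.75 and 3.42 in step 4 enriched cells, replicates 1 to 3. All enriched arrays lay above all control arrays, and the control array of slide 2 was the lowest. The difference was 1.103 (SE 0.20, 2.15-fold, adjusted p = 0.00323), with 1.07 within slide 1, 1.66 within slide 2 and 0.58 within slide 3. Its direction depended on the scaling: with all arrays scaled to the same spread of log ratios it was -0.17 (adjusted p = 0.702), while it stayed past the threshold under every other alternative tried.

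Irx2, the neighbour of Irx1 on chromosome 13, had log2 ratios of 0.28, 0.00014 and 0.55 in control and 1.35, 1.97 and 1.39 in enriched precursors. Control cells were thus near the mESC level and enriched cells above it, with no overlap. The difference was 1.30 (SE 0.24, 2.46-fold, adjusted p = 0.00324), and it was positive within each slide, at 1.07, 1.97 and 0.84. A second, dimmer Irx2 probe gave 0.52 (adjusted p = 0.00600).

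Irx3, from the second cluster on chromosome 8, had log2 ratios of 0.093, 0.23 and 0.19 in control and 0.94, 1.84 and 1.24 in enriched precursors. The 3 control arrays lay close together, and the enriched array of slide 2 stood highest. The difference was 1.17 (SE 0.28, 2.25-fold, adjusted p = 0.0108), with 0.85, 1.61 and 1.05 within slides 1, 2 and 3.

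Irx5, which lies beside Irx3, had log2 ratios of 0.39, -0.18 and 0.23 in control and 0.82, 1.499 and 1.06 in enriched precursors. Slide 2 again held both the lowest control and the highest enriched array. The difference was 0.98 (SE 0.21, 1.97-fold, adjusted p = 0.00658), and within slides it was 0.43, 1.67 and 0.83. Without all 4 arrays of replicate 3 the difference was 1.05 (adjusted p = 0.0849) for Irx5 and 1.23 (adjusted p = 0.0929) for Irx3.

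Pax8, the Pax2/5/8 family member that acts in the hindbrain, the ear and the thyroid, had log2 ratios of 0.13, -0.033 and 0.17 in control and 1.03, 0.36 and 0.44 in enriched precursors. The groups did not overlap, and the enriched array of slide 1 stood apart from the other two. The difference was 0.52 (SE 0.16, 1.43-fold, adjusted p = 0.0353), with 0.90, 0.39 and 0.27 within slides. Cy5 was above background on 2 of 3 control arrays, and the call was lost without control replicate 1, 2 or 3 or enriched replicate 1, with values of 0.54, 0.46, 0.56 and 0.31 (adjusted p = 0.0547 to 0.116).

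En2 and Gbx2 varied more between replicates than between enriched and control precursors. En2, the engrailed gene of the midbrain and cerebellum, had log2 ratios of -0.88, -2.05 and -0.23 in control and -1.30, 0.20 and 0.32 in enriched cells. Both groups spread widely and overlapped. Its difference was 0.80 (SE 0.51, 95% confidence interval -0.34 to 1.93, adjusted p = 0.266), and it ran in opposite directions in slide 1 (-0.42) and slide 2 (2.26). Gbx2, which marks the anterior hindbrain, had log2 ratios of -0.67, -2.06 and -1.76 in control and -0.018, -2.18 and -2.14 in enriched cells. Slide 1 was the highest in both groups. The Gbx2 difference was 0.053 (SE 0.61, 95% confidence interval -1.29 to 1.40, adjusted p = 0.958), so these arrays leave room for a change of more than 2-fold in either direction.

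Pax2, an early isthmic and kidney gene, did not pass the test. Its log2 ratios lay between -0.13 and 0.074 in control and -0.11 and 0.094 in enriched precursors, and the difference was 0.025 (SE 0.10, adjusted p = 0.879). Cy5 of this probe was above background on 1 of 3 control and 3 of 3 enriched arrays. A second Pax2 probe, at 0.051 (adjusted p = 0.793), did not pass either. The levels of the 2 probes disagree: the second had Cy5 above background on 3 of 3 arrays in every group and Cy3 on 0 arrays, with mean log2 ratios of 0.39 and 0.44 in step 4 control and enriched cells and 0.31 and 0.38 at step 5.

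At step 5, after bFGF withdrawal, the same comparison was made in differentiated cells. Irx1 and Irx2 were higher in enriched cells, by 2.19-fold and 1.66-fold, and 0 members were lower. This makes 2 of 8 members, beside 20.3% of all genes tested that rose and 20.2% that fell, so the share of members called was near that of all genes. The median log2 difference of the 8 was 0.62, against -0.0087 over all genes. On all 3 enriched arrays 6 members, En2 and Pax8 besides the 4 Iroquois genes, lay above all 3 control arrays, as did 25.6% of all genes at this step. At step 4 these were 5 members and 22.1% of all genes. Pax8 is counted at both steps although it entered the tests only through the enriched groups.

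**Figure D2:**
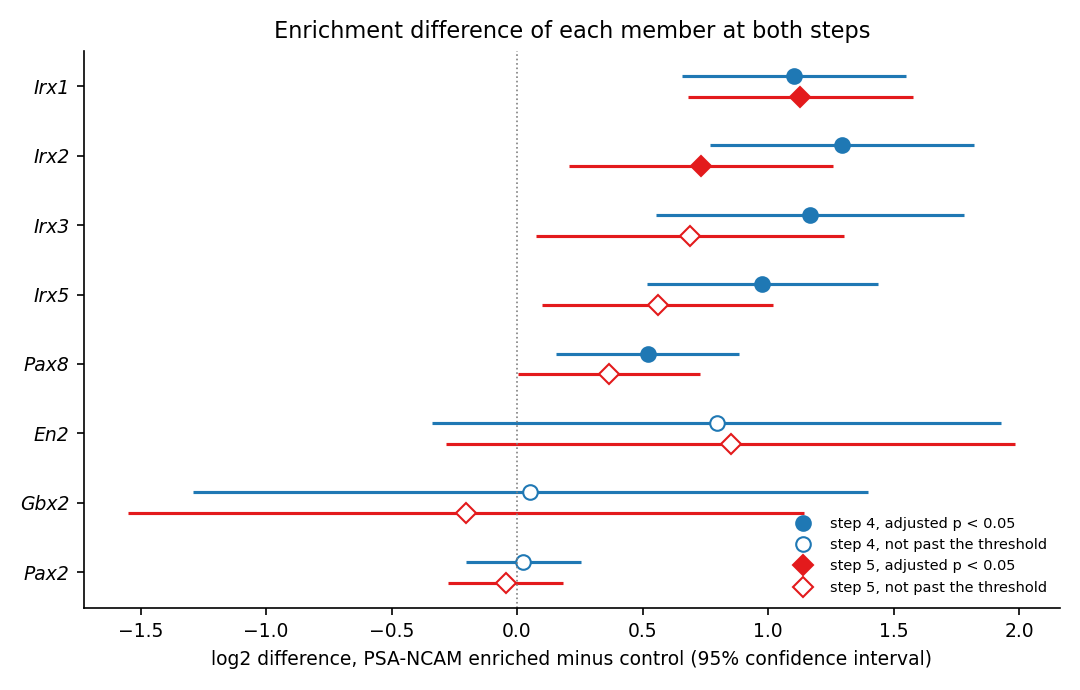
Log2 difference between PSA-NCAM enriched and control cells for the 8 members tested, at step 4 (circles) and step 5 (diamonds), with 95% confidence intervals from the limma fit; filled symbols have an adjusted p under 0.05. The intervals of the 4 Iroquois genes and Pax8 lie above 0 at both steps and those of En2, Gbx2 and Pax2 include it; with arrays scaled to 1 spread the Irx1 difference turns to -0.17 at step 4 and -0.039 at step 5.

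Irx1 log2 ratios were 2.21, 1.80 and 2.23 in step 5 control and 3.30, 3.32 and 3.00 in step 5 enriched cells, with no overlap. The difference was 1.13 (SE 0.20, adjusted p = 0.00180), with 1.09, 1.52 and 0.77 within slides, and it turned to -0.039 (adjusted p = 0.932) with arrays scaled to 1 spread. Its size was close to that at step 4.

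Irx2 log2 ratios were -0.31, -0.31 and -0.24 in control and 0.42, 0.91 and 0.018 in enriched cells. The control arrays were tightly grouped below the mESC level, and the enriched array of slide 3 stood lowest of its group. The difference was 0.73 (SE 0.24, adjusted p = 0.0311), with 0.73, 1.21 and 0.26 within slides. The dimmer Irx2 probe gave 0.061 (adjusted p = 0.688), so the 2 probes disagree at this step. The call was lost without control replicate 1, 2 or 3 or enriched replicate 1 or 2, with values of 0.72, 0.72, 0.76, 0.75 and 0.51 (adjusted p = 0.0612 to 0.110).

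Irx3, Irx5 and Pax8 did not pass the test at step 5, although their arrays did not overlap. Irx3 log2 ratios were 0.38, 0.15 and 0.65 in control and 0.80, 1.69 and 0.75 in enriched cells, and the difference was 0.69 (SE 0.28, adjusted p = 0.0704). Within slides it was 0.43, 1.54 and 0.10, so slide 2 carried most of it. Without all arrays of replicate 2 the Irx3 difference was 0.27, the lowest of any left-out set, while without the step 4 enriched array of replicate 2, which only sets the spread, its adjusted p was 0.0494. Irx5 log2 ratios were 0.20, -0.26 and 0.12 in control, where Cy5 was above background on 2 of 3 arrays, and 0.50, 0.77 and 0.47 in enriched cells. Its difference was 0.56 (SE 0.21, adjusted p = 0.0528), and the scanner software's own log ratios gave 1.60 (adjusted p = 0.0160). It also passed at 0.56 without step 4 control replicate 2 or step 4 enriched replicate 1 or 2 (adjusted p = 0.0366 to 0.0425).

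Pax8 log2 ratios were -0.080, -0.34 and -0.16 in control and 0.18, 0.11 and 0.22 in enriched cells. Its difference was 0.37 (SE 0.16, adjusted p = 0.101), and the scanner's log ratios, which have no offset added to the signals, gave 1.94 (adjusted p = 0.00369). Without step 4 enriched replicate 1 it passed at 0.37 (adjusted p = 0.0194). En2 log2 ratios were -1.65, -2.29 and -1.61 in control and -1.18, -1.30 and -0.51 in enriched cells. These did not overlap, and the En2 difference was 0.85 (SE 0.51, adjusted p = 0.213), short of the threshold. It passed under 0 of 32 alternatives, with an adjusted p of 0.0562 when only the step 5 groups were fitted.

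Gbx2 log2 ratios were -1.57, -3.09 and -2.12 in control and -1.98, -2.84 and -2.57 in enriched step 5 cells, and these overlapped. The Gbx2 difference was -0.20 (SE 0.61, adjusted p = 0.820) and that of Pax2 was -0.044 (SE 0.10, adjusted p = 0.767). Whether the enrichment differences changed between the steps was tested as an interaction. It called 0 of 8 members and 0 of all 22313 genes in limma, with 1574 genes at an unadjusted p under 0.05. The differences at step 5 minus step 4 were -0.56 (SE 0.34, adjusted p = 0.824) for Irx2, -0.48 (SE 0.39, adjusted p = 0.912) for Irx3 and -0.42 (SE 0.29, adjusted p = 0.877) for Irx5.

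From step 4 to step 5, Irx2 fell in the enriched cells and no other member passed the test. Irx2 went from 1.57 ± 0.35 (SD, n = 3) to 0.45 ± 0.44, a log2 difference of -1.12 (SE 0.24, 2.18-fold lower, adjusted p = 0.0223). It was lower within each slide, by -0.93, -1.07 and -1.37, and the dimmer probe also fell, with -0.47 (adjusted p = 0.0300). The call was lost without step 4 enriched replicate 2 (-0.92) or step 5 enriched replicate 1 (-1.11) or 3 (-0.91), with adjusted p = 0.0571 to 0.0889. This made 0 members higher and 1 of 8 lower, beside 3.96% of all genes higher and 2.46% lower.

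The other members gave step differences in enriched cells of -0.42 (SE 0.20, adjusted p = 0.260) for Irx1, -0.26 (SE 0.28, adjusted p = 0.644) for Irx3 and -0.54 (SE 0.21, adjusted p = 0.157) for Irx5. Pax8 gave -0.44 (SE 0.16, adjusted p = 0.152), En2 -0.74 (SE 0.51, adjusted p = 0.449), Gbx2 -1.02 (SE 0.61, adjusted p = 0.370) and Pax2 -0.14 (SE 0.10, adjusted p = 0.497). The enriched arrays of step 5 lay below those of step 4 without overlap for Irx1, Irx5 and Pax8. All 8 differences were thus negative, with a median of -0.49 against -0.0031 over all genes.

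In control cells the step comparison called 0 of 8 members and 0% of all genes in limma, with 1917 genes at an unadjusted p under 0.05. Irx2 differed by -0.56 (SE 0.24, adjusted p = 0.534), and its unadjusted p was 0.0389. Irx1 differed by -0.44 (SE 0.20, adjusted p = 0.582), En2 by -0.79 (SE 0.51, adjusted p = 0.797) and Gbx2 by -0.76 (SE 0.61, adjusted p = 0.869). The Iroquois genes of the other cluster differed less, Irx3 by 0.22 (SE 0.28, adjusted p = 0.946) and Irx5 by -0.13 (SE 0.21, adjusted p = 0.966). Both step comparisons share no arrays with each other, and control arrays varied more than enriched ones.

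Against the mESC reference the direction differed between members, with Irx1 above it and Gbx2 below it in every group. These tests leave out the spread of the reference itself. Irx1 was above mESC in all 4 groups, by 5.75-fold in step 4 control (adjusted p = 1.32e-06), 12.4-fold in step 4 enriched (2.30e-08), 4.23-fold in step 5 control (3.59e-06) and 9.24-fold in step 5 enriched cells (adjusted p = 3.67e-08 in limma). The order of its means was step 4 enriched at 3.63 ± 0.18 (SD, n = 3), step 5 enriched at 3.21 ± 0.18, step 4 control at 2.52 ± 0.39 and step 5 control at 2.08 ± 0.25. The 2 enriched groups did not differ beyond the test, nor did the 2 control groups.

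In the main fit the other 3 Iroquois genes were above mESC in both enriched groups and did not pass the test in either control group. Irx2 was 2.97-fold above mESC in step 4 enriched (adjusted p = 1.28e-05) and 1.37-fold above it in step 5 enriched cells (adjusted p = 0.0327). The step 5 call of Irx2 held under 23 of 32 alternatives. It was lost with scaling, the scanner's log ratios, the deposited values, the mean over probes and only the compared groups fitted. The dimmer Irx2 probe had mean log2 ratios of 0.49 in step 4 enriched and 0.021 in step 5 enriched cells, the latter near the mESC level. Irx3 was 2.54-fold above mESC in step 4 enriched (adjusted p = 0.000126) and 2.12-fold above it in step 5 enriched cells (adjusted p = 0.000498). Irx5 was 2.18-fold (adjusted p = 5.57e-05) and 1.49-fold above it (adjusted p = 0.00445). In control cells their mean log2 ratios lay between -0.28 and 0.39 with adjusted p-values of 0.127 or more. These control values depended on the processing. With each array's median set to 0 in place of loess, Irx2 was above mESC in step 4 control cells by 0.68 (adjusted p = 0.00723), and Irx3 by 0.58 (adjusted p = 0.0375) at step 4 and 0.82 (adjusted p = 0.00722) at step 5. In step 5 control cells Irx3 also passed with arrays scaled to 1 spread (0.47, adjusted p = 0.0435), with array weights (0.57, adjusted p = 0.0112) and without all arrays of replicate 2 (0.51, adjusted p = 0.0155), and Irx2 was below mESC with the scanner's log ratios (-0.61, adjusted p = 0.0193).

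Gbx2 was below the mESC level in every group. Its mean log2 ratio was -1.496 ± 0.73 (SD, n = 3, adjusted p = 0.0187) in step 4 control, -1.44 ± 1.23 (adjusted p = 0.0120) in step 4 enriched, -2.26 ± 0.77 (adjusted p = 0.00179) in step 5 control and -2.46 ± 0.44 (adjusted p = 0.000385) in step 5 enriched cells. En2 was below mESC in step 4 control (-1.05 ± 0.93, adjusted p = 0.0404), step 5 control (-1.85 ± 0.38, adjusted p = 0.00213) and step 5 enriched cells (-0.996 ± 0.43, adjusted p = 0.0290), but not past the threshold in step 4 enriched cells (-0.26 ± 0.90, adjusted p = 0.548). Some of these calls rested on single arrays. In step 4 control cells En2 was at -1.14 without replicate 1 and -0.55 without replicate 2, and Gbx2 at -1.22 without replicate 2 and -1.36 without replicate 3, and without enriched replicate 2 or 3 Gbx2 was at -1.08 or -1.10 in step 4 enriched cells, all short of the threshold. In step 5 enriched cells En2 missed it without replicate 1 (-0.90) or 2 (-0.84), as did Irx2 (0.46 and 0.22). Median centring in place of loess also ended the calls of En2 in step 4 control (-0.66) and step 5 enriched cells (-0.30) and of Gbx2 in step 4 control (-1.07) and step 4 enriched cells (-0.81). Pax8 was above mESC in step 4 enriched cells at 0.61 ± 0.37 (adjusted p = 0.000816) and not in the other groups.

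In counts, 1 member was above and 2 below mESC in step 4 control, where 21.4% of the 22444 genes tested were above and 17.4% below. In step 4 enriched cells 5 were above and 1 below, beside 35.4% and 31.5%. In step 5 control cells 1 was above and 2 below, beside 25.7% and 19%. In step 5 enriched cells 4 were above and 2 below, beside 38.4% and 33.1%.

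The Iroquois genes lie in 2 clusters, and the third gene of each cluster did not pass the test. Irx4, the heart ventricle gene that ends the Irx1 and Irx2 cluster, had an enrichment difference of 0.18 (SE 0.27, adjusted p = 0.647) at step 4 and -0.26 (SE 0.27, adjusted p = 0.463) at step 5. Irx6, next to Irx3 and Irx5, had differences of -0.33 (SE 0.14, adjusted p = 0.0882) and -0.34 (SE 0.14, adjusted p = 0.0715). No test of Irx4 or Irx6 against the members was run.

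Among the non-Iroquois neighbours in the RefSeq order of genes, Fto, which encodes an RNA demethylase and lies beside Irx3, was higher in enriched cells by 0.44 (SE 0.13, adjusted p = 0.0294) at step 4 and 0.95 (SE 0.13, adjusted p = 0.000498) at step 5. Rpgrip1l, a gene of the ciliary transition zone, was higher by 0.82 (SE 0.28, adjusted p = 0.0470) at step 4, while at step 5 it had 0.44 (adjusted p = 0.234). Lpcat2, an enzyme of phospholipid synthesis beyond Mmp2, was higher at step 5, with 0.50 (SE 0.17, adjusted p = 0.0386), and had 0.062 (adjusted p = 0.817) at step 4. Ice1, on the far side of Irx1, was higher by 0.31 (SE 0.10, adjusted p = 0.0404) at step 4 and 0.32 (SE 0.10, adjusted p = 0.0304) at step 5. The noncoding RNA Crnde, which lies between Irx3 and Irx5, did not pass, with -0.10 (SE 0.18, adjusted p = 0.702) and -0.34 (SE 0.18, adjusted p = 0.159). Adamts16, Ndufs6, Mrpl36, Mmp2 and 4831440D22Rik did not pass at either step, with differences between -0.053 and 0.41.

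**Figure D3:**
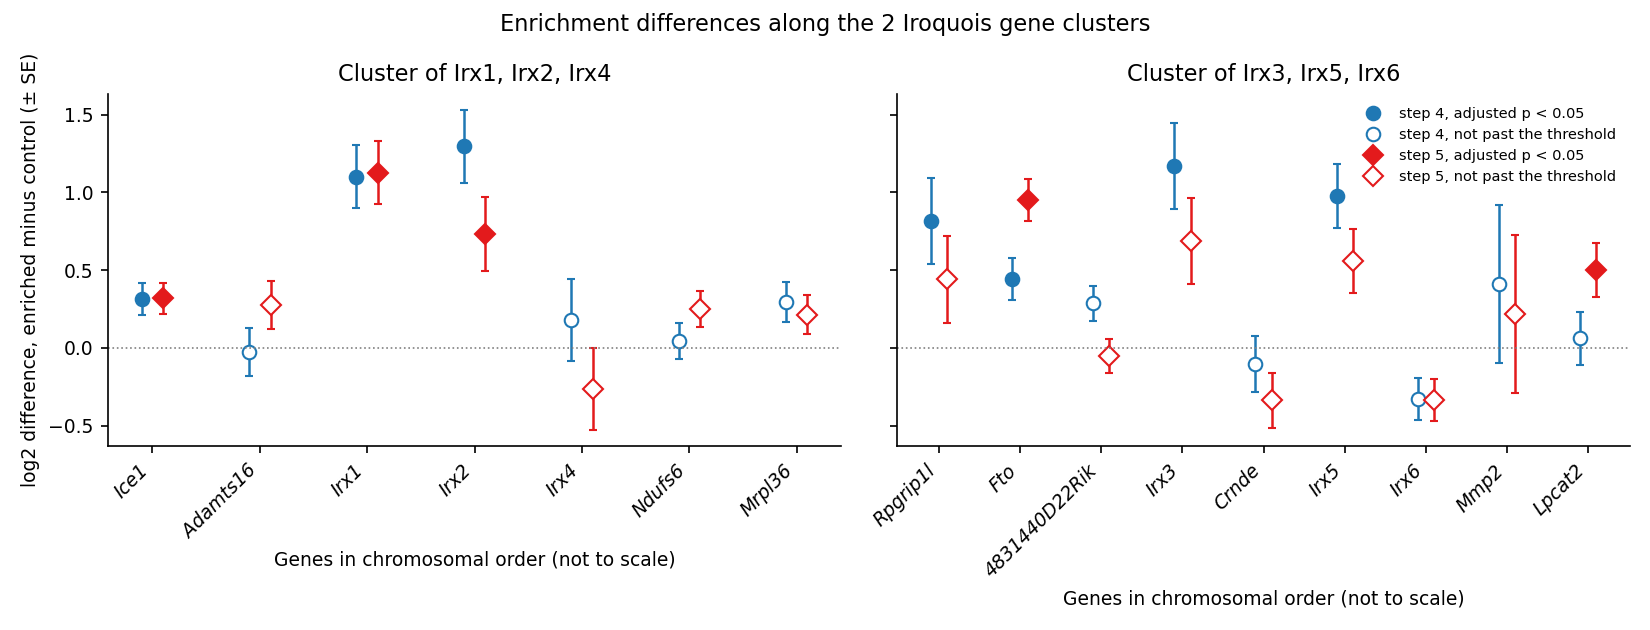
Log2 difference between enriched and control cells (± SE) of the tested genes along the 2 Iroquois clusters, in chromosomal order and not to scale, at step 4 (circles) and step 5 (diamonds); filled symbols have an adjusted p under 0.05. Irx1, Irx2, Irx3 and Irx5 stand above the other genes at step 4 with values of 0.98 to 1.30, while Irx4 and Irx6 lie between -0.34 and 0.18; with arrays scaled to 1 spread Irx1 turns to -0.17 at step 4 and -0.039 at step 5.

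Other genes of the same axis, in lists drawn up for this purpose, were compared with the members. Of the 6 tested relatives (other Pax, Gbx and Irx genes) 0 were higher at step 4 and Gbx1 was lower, with -0.51 (SE 0.11, adjusted p = 0.00672), and at step 5 Gbx1 again, with -0.30 (SE 0.11, adjusted p = 0.0492). With the replicate number as a block the step 4 count was 1 higher and 1 lower, since Pax6, a gene of forebrain and ventral neural tube, had 0.69 (adjusted p = 0.0603 without and 0.0454 with the block). The median log2 difference of the relatives was 0.29 at step 4.

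Of the 5 isthmic signals tested, Fgf15 was higher at step 4 by 2.40 (SE 0.47, adjusted p = 0.00458) and 0 at step 5. Fgf8 gave 0.037 (SE 0.10, adjusted p = 0.804) and -0.16 (SE 0.10, adjusted p = 0.220), and Wnt1 gave -0.25 (SE 0.11, adjusted p = 0.121) and -0.031 (SE 0.11, adjusted p = 0.850). The organizer's 2 main signals therefore did not pass the test in either comparison. Of the 8 FGF response genes, 0 passed at step 4, or 2 with the block, and Etv1 was higher and Etv4 lower at step 5. In enriched cells Il17rd fell by 2.19 (SE 0.43, adjusted p = 0.0171) and Etv4 by 1.71 (SE 0.44, adjusted p = 0.0484) from step 4 to step 5, which is 2 of 8, or 5 with the block.

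Otx2, the forebrain and midbrain factor that abuts Gbx2, was 2.87 in step 4 control and 3.18 in step 4 enriched cells, against 1.81 and 1.92 at step 5, as mean log2 ratios. Its enrichment differences of 0.32 (SE 0.26, adjusted p = 0.381) and 0.11 (SE 0.26, adjusted p = 0.767) did not pass, while in enriched cells it fell by 1.26 (SE 0.26, adjusted p = 0.0191) between the steps. Of the 18 other midbrain and isthmic factors tested, Otx2 included, 2 were higher at step 4 and 0 lower, or 3 and 1 with the block. These were Meis1, with 1.43 (SE 0.33, adjusted p = 0.00988), and Meis2, with 1.69 (SE 0.49, adjusted p = 0.0250), cofactors of Hox and Pax proteins. With arrays scaled to 1 spread the signs of both turned, to -0.61 and -0.15. At step 5 they were again the 2 higher, with Gata3 lower, or 3 higher and 4 lower with the block. With scaling they turned there to -0.68 and -0.25.

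Of the 12 hindbrain segment genes tested, 4 were higher and 1 lower in enriched cells at each step. Hoxa2, which is active as far forward as the second rhombomere, was higher by 1.35 (SE 0.34, adjusted p = 0.0148) at step 4 and 1.00 (SE 0.34, adjusted p = 0.0394) at step 5. Epha4, an ephrin receptor gene, was higher by 1.05 (SE 0.17, adjusted p = 0.00156) and 1.04 (SE 0.17, adjusted p = 0.000986). Hoxb2 missed the threshold with 1.102 (SE 0.55, adjusted p = 0.152) and 0.80 (SE 0.55, adjusted p = 0.272), but passed it with the replicate block (adjusted p = 0.00414 and 0.0125). With the block the step 4 count was 6 higher and 2 lower.

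Of the 12 forebrain genes tested, 7 were higher and 2 lower at step 4, and 7 were higher and 1 lower at step 5. Enriched cells thus had higher levels of genes from forebrain and from hindbrain lists at once, and the median log2 difference of the forebrain list at step 4 was 1.22, against 0.94 for the hindbrain list and 0.89 for the 8 members.

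**Figure D4:**
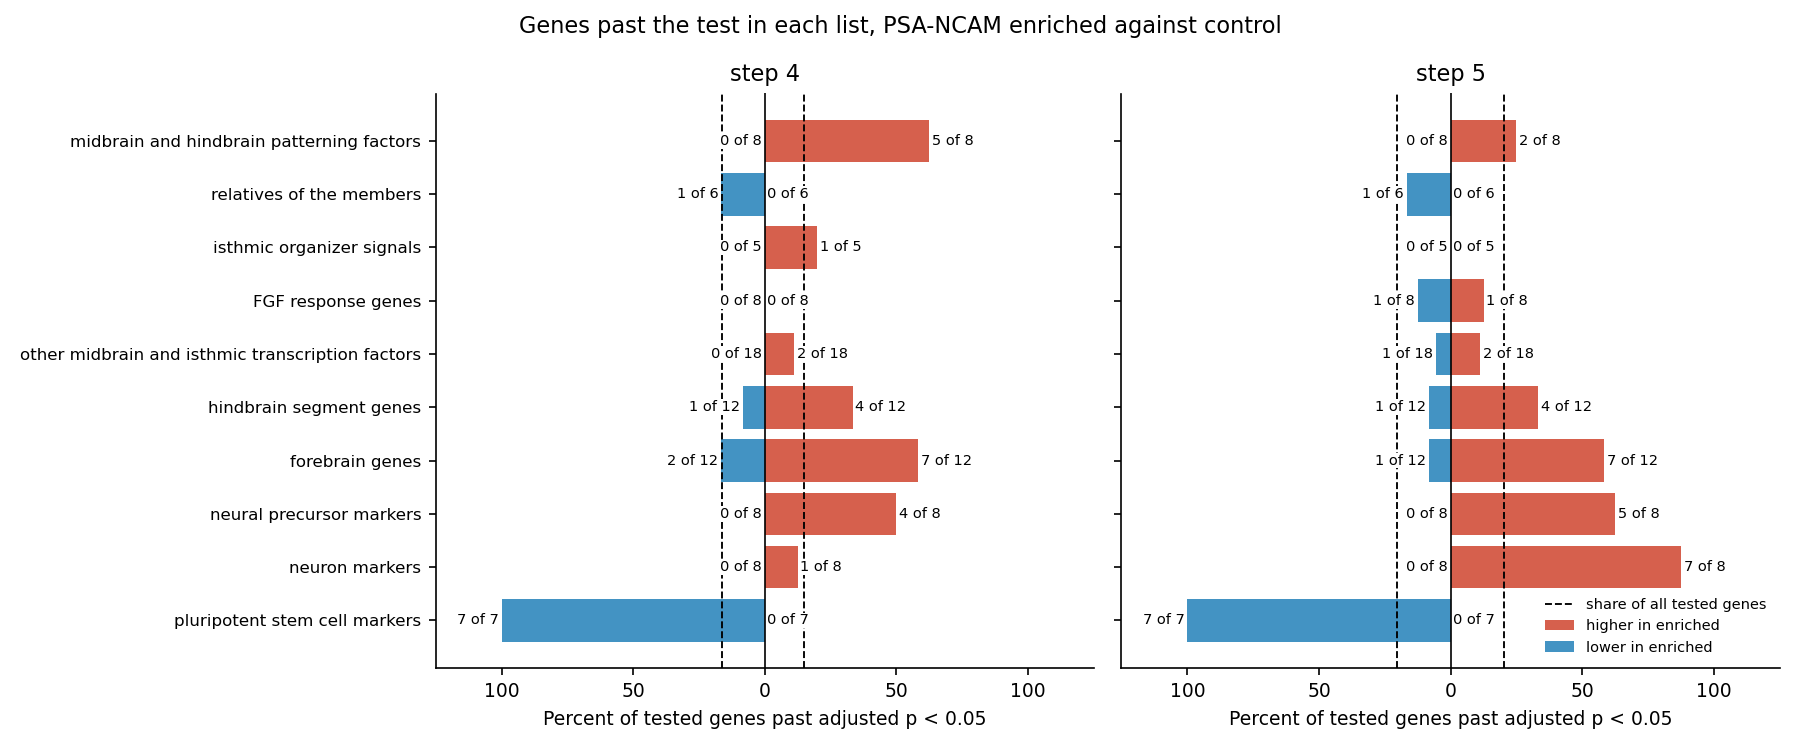
Share of the tested genes of each list that were higher (right) or lower (left) in PSA-NCAM enriched than in control cells at an adjusted p under 0.05, at both steps; dashed lines give the share among all genes tested, and counts stand beside the bars. Of the patterning factors 5 of 8 were higher at step 4 and 2 of 8 at step 5, beside 7 of 12 forebrain genes at each step and 0 of 7 pluripotent markers; Irx1, Meis1, Meis2, Vim and Fabp7, counted as higher, turn negative with arrays scaled to 1 spread.

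Markers of the cells that these members also serve in other organs were counted in the same way. Of 6 kidney markers tested 0 passed the test at either step, or 1 lower with the block at each, and Umod was above background on 0 arrays. Of 2 thyroid markers tested 1 was higher, Tshr, with 0.64 (SE 0.15, adjusted p = 0.0111) and 0.53 (SE 0.15, adjusted p = 0.0196). Of 7 heart markers 2 were lower at each step, among them Myh6 with -2.11 (SE 0.27, adjusted p = 0.000540) at step 4. Cd79b, a B cell receptor component, was lower at step 4 (adjusted p = 3.38e-05 in the limma fit of log ratios). Its Cy5 was well above background on 0 enriched arrays. With the lowest signal of a probe above background standing in for a dimmer one, it was 6.55-fold lower. This is a rough size and not a strict bound, because the signal needed to pass background can differ between probes. Of 4 B cell markers 1 was higher and 2 lower at step 4 and 3 were lower at step 5, with median log2 differences of -0.63 and -0.97. Of 3 otic markers 0 passed at step 4 and 1 was lower at step 5. Blk and Rag1 were not above background on any array. Of 8 neural precursor markers 4 were higher at step 4 and 5 at step 5, and of 8 neuron markers 1 was higher at step 4, or 4 with the block, and 7 at step 5. The mean log2 ratio of the precursor markers ranged from 1.48 to 2.67 on step 4 control and from 3.11 to 3.47 on step 4 enriched arrays, so they were higher on the same arrays as the Iroquois genes.

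Across the 12 arrays the Iroquois genes ran together. Pearson's r of their log2 ratios was 0.891 between Irx1 and Irx2, 0.864 between Irx3 and Irx5, 0.917 between Irx2 and Irx5 and 0.914 between Irx1 and Irx5. The lowest r among the 4 was 0.775, between Irx1 and Irx3. Other members correlated with the 4 Iroquois genes to differing degrees. Pax8 did so between 0.447 (Irx3) and 0.834 (Irx1), and En2 between 0.496 (Irx3) and 0.771 (Irx5). Gbx2 lay between -0.20 and 0.27, and Pax2 between -0.089 and 0.338. These are descriptions over arrays that share 4 groups and 3 slides, so the groups alone give part of each r.

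The 3 genes whose log2 ratios ran most like each member's over the 12 arrays, among all genes tested with a symbol, were found by Pearson's r. For Gbx2 these were Spry2 (r = 0.947), Fbxl6 (0.911) and Rgs19 (0.902). Spry2 encodes an inhibitor of receptor tyrosine kinase signalling and, like Gbx2, was highest on the step 4 arrays of slide 1, with log2 ratios of 0.11 in control and 0.37 in enriched cells. For En2 they were Mir124-2hg (r = 0.970), the host gene of a neuronal microRNA, Scrt2 (0.945) and Pax3 (0.937). Pax3, a dorsal neural tube factor, had 0.73, 0.51 and 2.15 in step 4 control and 0.90, 2.45 and 2.44 in step 4 enriched cells, and so shared the low slide 1 array of En2 in enriched cells.

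For Irx1 the nearest genes were Thbs3 (r = 0.985), Slc35f1 (0.982) and Zfp334 (0.982), and for Irx2 Bahcc1 (0.961), Pde1c (0.950) and Fgf9 (0.949). For Irx3 they were Trim41 (r = 0.922), Wiz (0.921) and Ppp1r21 (0.914), and for Irx5 Ankrd50 (0.972), Txnrd3 (0.970) and Bhlhe22 (0.970). For Pax8 they were Unc13c (r = 0.953), Pafah2 (0.947) and Rfx7 (0.939). Pax2, whose ratios vary little around 0, had no r above 0.788.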

How the data were processed

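Per the file headers, the scanner files give each spot's mean signal and local background as intensity in both channels, and a log ratio in log10. The authors' deposited values are log2 ratios, of which 99.4 to 99.5% per array matched the scanner's ratios (turned to log2, within 0.001); how they were made is not given in the sources used here. Slide 2 was read with Feature Extraction 10.5.1.1 and the others with 10.7.3.1.

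In R 4.3.3 with limma 3.58.1 and data.table (version 1.17.8), normexp (offset 50) was applied to the background and loess within each array, with control and outlier spots left out and spots of a probe averaged. Probes entered the tests between groups where all 3 arrays of some group had Cy5 well above background, and the mESC tests also where all 12 had such Cy3. One linear model on 4 group means with eBayes gave two-sided tests, adjusted by Benjamini and Hochberg over all genes tested. In data simulated for step 4 enrichment on 22313 genes, 91% of genes changed by 2 and 58% changed by 1 (log2) were recovered. Only 100 genes of each size were changed there, with noise drawn independently for each array. The real comparison called far more genes and its arrays shared slides, so these rates do not give its sensitivity. RefSeq gave names to 26581 of the 39429 probes through their accession, to 105 through a further accession, to 2531 through the symbol and to 474 through a synonym, and promoters for 7 of the 10 members. Named genes were the members, genes past the test in the other lists (at most 6 a list), of which some are not reported here, and Otx2, Fgf8, Wnt1, Irx4, Irx6, Hoxa2, Hoxb2, Pou5f1 and Ncam1; likeness was ranked by r. The members and lists were chosen with earlier results of these data known.

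Arrays with the same replicate number shared a slide. Their deviations from group means correlated at 0.130 to 0.643 between step 4 control and enriched, 0.188 to 0.362 at step 5, 0.463 to 0.747 between control groups and 0.341 to 0.413 between enriched groups. For arrays of different numbers these were -0.582 to 0.297, -0.321 to 0.085, -0.775 to 0.219 and -0.362 to 0.027, in the same order. Between step 4 enriched and step 5 control arrays the same number gave -0.133 to 0.227 and different numbers -0.307 to 0.248. Between step 4 control and step 5 enriched arrays these were 0.251 to 0.334 and -0.239 to -0.063. The ranges thus overlapped for some pairs of groups. The number was left out of the main fit and taken to pair the arrays, as a block, in an alternative. The number of arrays limits the precision.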

Additional observations from a re-analysis of the deposited data

How the results depend on the processing

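Each result was recomputed under 15 other settings, without each of 12 arrays and 3 slides, and in 2 ways chosen after seeing the data (both control arrays of slide 2, or both step 4 arrays of slide 1, left out). The replicate block changed no call of a member (Irx2 at step 4: 1.30, adjusted p = 0.00391), but over all genes it raised the calls of the step change in enriched cells from 883 higher and 550 lower to 1464 higher and 983 lower. Calls held under 32 of 32 alternatives for Irx2 at step 4, 31 for Irx1 at each step and for Irx3 at step 4, 29 of 31 for Irx5 and 19 of 31 for Pax8 at step 4, 22 of 32 for Irx2 at step 5 and 24 of 32 for the fall of Irx2 in enriched cells. The count of members past the test at step 4 (5) was 2 with arrays scaled to 1 spread and 2 to 5 with arrays left out. With Cy5 above background required on all 12 arrays it was 3, since Irx5 and Pax8 were then not tested. At step 5 (2) it was 4 without background subtraction, with median centring, with the scanner's log ratios, with the deposited values and without both step 4 arrays of slide 1, 0 with scaling, 1 with the mean over probes and without both control arrays of slide 2, and 1 to 4 with arrays left out. For the step change in enriched cells (1) it was 0 with scaling, with only the compared groups fitted and without both step 4 arrays of slide 1, 2 with array weights, and 0 to 1 with arrays left out. Against mESC it was 1 in step 4 control cells without both control arrays of slide 2 (main 3; 1 to 3 with arrays left out) and 5 in step 5 control cells with median centring, scanner ratios and deposited values (main 3).

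Median centring in place of loess moved the median difference of all genes to 0.13 at both steps and the calls to 4782 higher and 2576 lower at step 4 (3340 and 3610 with loess) and 5955 and 3057 at step 5 (4527 and 4501); scaling gave 647 and 1663, and 1239 and 2167. Scaling turned Irx1 (-0.17, -0.039), Meis1 (-0.61, -0.68), Meis2 (-0.15, -0.25), Vim (-0.24, -0.59) and Fabp7 (-1.58, -1.48) at steps 4 and 5, and Gbx2 at step 5 (0.83). Other reversals were of values that had not passed the test. Pax2 was -0.014 at step 4 without background subtraction, -0.013 with scanner ratios and with deposited values, -0.038 without both control arrays of slide 2 and -0.061 to 0.13 with arrays left out; at step 5 it was 0.13, 0.51 and 0.51 in the first 3, 0.0049 with median centring, 0.027 with the mean over probes and -0.12 to 0.012 with arrays left out; between the steps in control cells it was -0.14 to 0.014. Gbx2 at step 4 was -0.41 with array weights, -0.23 and -0.25 with the arrays of slides 2 and 1 left out as above and -0.66 to 0.46 with single arrays or slides left out, and at step 5 0.071 with median centring and -0.62 to 0.14 with arrays left out. Irx5 between the steps in control cells was -0.29 to 0.014 with arrays left out. Against mESC, Pax8 in step 4 control was -0.082 with median centring, -0.075 with scanner ratios and -0.076 with deposited values, En2 in step 4 enriched was 0.38 with median centring, 0.060 with array weights, 0.26 without both step 4 arrays of slide 1 and -0.55 to 0.26 with arrays left out, and Irx2 in step 5 control was 0.12 with median centring. Irx5 in step 5 control was -0.048 without background subtraction, -0.042 with median centring, -0.35 with scanner ratios and with deposited values, and -0.070 to 0.16 with arrays left out. The causes were not tested. En1 and Pax5 lay near background, as did Pax2 and Pax8 on some control arrays, which limits what their ratios can show.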
